A study of Mus musculus with 8 samples.

Results

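The cells described here are CD8 T cells whose receptor library held exactly 1 productive TRB contig and exactly 2 productive TRA contigs, TRA and TRB being the genes of the T cell receptor α and β chains. There were 1242 of them among 17559 barcodes with a productive contig. The reference was the 11726 barcodes with exactly 1 productive TRB and 1 productive TRA contig. The cells were sorted CD8 T cells from spleen and liver of C57BL/6 mice, the wild type (WT), or of EomesTg/Tg mice (EomesTG), a gain-of-function strain that expresses the transcription factor Eomes in T cells. The promoter of the transgene and the ages of the mice are not given in the sources used here. Cells of 3 mice per strain were pooled before sorting and profiled with 10x Genomics 5′ chemistry, with 1 expression library and 1 TCR library per genotype and tissue. Differences between libraries therefore have no replicate check, both organs of a genotype come from the same pool of mice, and the tests below compare cells with 2 and with 1 productive TRA inside the 4 libraries. Lists of 4 values give the spleens first (WT, then EomesTG) and then the livers (WT, then EomesTG).

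A T cell makes its TRB chain first and usually keeps a single productive TRB allele, which is called allelic exclusion. The TRA locus is not excluded in this way: both alleles rearrange in the same thymocyte, and each can rearrange again, joining a more upstream V segment to a more downstream J segment until the receptor is positively selected. The TRD locus, which encodes the γδ receptor's δ chain, lies between the TRAV and TRAJ segments and is cut out of the chromosome when a TRAV joins a TRAJ. In GENCODE M21 (GRCm38, the assembly also called mm10) 128 TRAV segments were annotated at chr14:52427928-53977678 and 60 TRAJ segments at chr14:54155005-54218842, of which the cells used 89 and 43. Segments were numbered along the chromosome, so that TRAJ rank 1 is nearest to the V segments and rank 60 nearest to the constant gene Trac.

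The pairs of TRA chains of the clones with the most cells carrying 2 of them show what such a cell carries. Each line gives the CDR3 as nucleotides, 5′ to 3′, with bases in capitals that matched neither the germline V nor the germline J segment. Among clones with a TRA pair, the one with the most cells in EomesTG liver, and also in EomesTG spleen, joined TRAV13-1 (chr14:53545014-53545525) to TRAJ31 (chr14:54187895-54187951) on 1 chain and TRAV9-4 (chr14:53676141-53676630) to TRAJ35 (chr14:54183774-54183838) on the other, beside a TRBV12-1 and TRBJ2-5 β chain.
EomesTG TRAV13-1 TRAJ31: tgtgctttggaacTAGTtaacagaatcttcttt
EomesTG TRAV9-4 TRAJ35: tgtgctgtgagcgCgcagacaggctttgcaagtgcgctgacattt
Among such clones of WT liver, the one with the most cells joined TRAV7-3 (chr14:53443249-53443839) to TRAJ30 (chr14:54189866-54189924) and TRAV9-4 to TRAJ15 (chr14:54204422-54204481).
WT liver TRAV7-3 TRAJ30: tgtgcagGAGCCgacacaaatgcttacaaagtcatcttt
WT liver TRAV9-4 TRAJ15: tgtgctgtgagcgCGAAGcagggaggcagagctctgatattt
No clone of WT spleen had more than 2 cells with both chains, and 1 of the 2 clones with 2 such cells joined TRAV8N-2 (chr14:53345890-53346424) to TRAJ26 (chr14:54194490-54194549) and TRAV14D-2 (chr14:52948568-52949169) to TRAJ27 (chr14:54192303-54192361).
WT spleen TRAV8N-2 TRAJ26: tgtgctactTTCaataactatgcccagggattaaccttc
WT spleen TRAV14D-2 TRAJ27: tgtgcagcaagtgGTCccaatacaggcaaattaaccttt
The untemplated bases numbered 4 and 1, 5 and 5, and 3 and 3 in these pairs. The J segments of a pair had ranks 31 and 27, 32 and 47, and 36 and 35.

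In each library, about 1 cell in 10 was found with 2 productive TRA chains. Such cells were 352 of 3764 in WT spleen, or 9.35% (95% exact binomial interval 8.44 to 10.3%). In EomesTG spleen they were 377 of 3877, or 9.72% (8.81 to 10.7%). In WT liver they were 231 of 2222, or 10.4% (9.16 to 11.7%). In EomesTG liver they were 282 of 3105, or 9.08% (8.09 to 10.1%). The 4 intervals overlap, and they cover counting error only. They do not cover missed chains: a cell with only 1 chain of a pair found counted as a reference cell, as given below. When each clone was counted once, a clone being cells of a library with the same TRB and a shared TRA, the shares were 9.59, 9.78, 10.9 and 10.0%. The share in EomesTG liver rested on the clone shown first above: 147 of the 282 cells belonged to it, and without its 308 cells the share was 135 of 2797, or 4.83%. Without the corresponding clone the share was 9.30, 9.58 and 9.61% in the other libraries. The share also moved with the number of TRB UMIs of a cell. From cells with 1 to 4 TRB UMIs to those with 20 or more it was 8.64 and 11% in WT spleen, 6.90 and 10.5% in EomesTG spleen and 7.43 and 11.4% in WT liver, but 10.7 and 3.95% in EomesTG liver. The 2 counting intervals overlapped in the first 3 libraries and not in EomesTG liver (7.77 to 14.3% and 2.80 to 5.4%).

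Barcodes with 2 productive TRB chains, where more than 1 cell per barcode is a known possibility, held a second productive TRA in 28.1, 30.1, 25.4 and 13.6% of the cases with 1 or 2 TRA. That was higher than with 1 productive TRB in 4 of 4 libraries, by 14.7 ± 7.11 percentage points (mean ± SD of the 4 differences). In all, 20 such paired differences over the 4 libraries were tested with a two-sided exact sign-flip permutation test, in which 4 libraries allow no p low enough to pass 0.05 (the smallest, given when all 4 differences have the same sign, is 0.227 after Benjamini-Hochberg adjustment over the 20). Here the p was that smallest value.

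**Figure D1:**
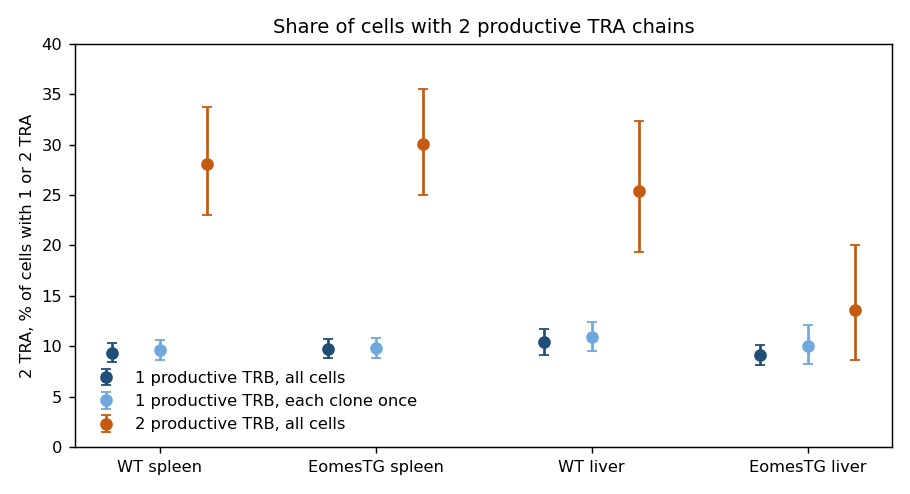
Share of cells with 2 productive TRA chains among cells with 1 or 2 (y axis, %), by library (x axis), for barcodes with 1 productive TRB counted by cell and by clone, and for barcodes with 2 productive TRB; points are shares and bars 95% exact binomial intervals, which cover counting error only. The shares with 1 productive TRB lie between 9.08 and 10.9%, and those with 2 productive TRB lie above them, with the smallest gap in EomesTG liver (13.6%).

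Both TRA chains were found at similar UMI counts, a UMI being a tag that marks 1 captured mRNA molecule. The chain with more UMIs had medians of 5, 5, 6 and 6, the other chain a median of 3 in every library, and the only chain of the reference cells medians of 4, 4, 4 and 5. The weaker chain gave a median of 40, 40, 40 and 37.5% of a cell's TRA UMIs, with each clone represented by its cell with the most TRA UMIs. It had only 1 UMI in 40 cells (11.4%), 40 cells (10.6%), 21 cells (9.09%) and 13 cells (4.61%). The TRB chain had medians of 10, 10, 11 and 9 UMIs, against 10, 9, 10 and 13 in the reference. The expression libraries of the same barcodes held medians of 5528, 5087, 6175 and 4307 UMIs, against 5169, 4867.5, 5719 and 4061 in the reference. They were higher in 4 of 4 libraries (exact sign-flip test, adjusted p = 0.227, the smallest possible) by 320 ± 109 UMIs. Barcodes with 2 TRA and 2 TRB chains stood far above both, with medians of 8543, 9241, 10679 and 7957. Of the cells with 1 TRB and 2 TRA, 7.16, 3.46, 6.11 and 7.80% were among the 5% of barcodes with the most UMIs. The values were 4.33, 3.34, 5.12 and 5.11% of the reference cells, lower in each library. They were 38.3, 58.1, 25.5 and 14.3% of the barcodes with 2 TRA and 2 TRB.

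Both chains of a cell could also be seen in the expression library of the same barcodes. A barcode holding more than 1 cell would show in both libraries, so this is not an independent check that 1 cell carries both chains. Over clones whose chains use different TRAV families, each counted once (318, 335, 188 and 93 clones), a UMI of the weaker chain's family was found in 61.6, 78.2, 66.5 and 84.9%. For the stronger chain it was found in 61, 82.4, 73.4 and 83.9%. The only chain of reference cells was found in 69.3, 78.8, 72.4 and 73.6%. All reference cells entered, while each clone was represented by its cell with the most TRA UMIs, which favours high values for the clones. Reference cells that use another family and carry no nonproductive TRA contig had a UMI of the weaker chain's family in 2.63, 2.58, 2.82 and 2.78%, and of the stronger chain's family in 2.79, 3.18, 2.91 and 2.79%. Both families were seen in 38.1, 64.8, 50.5 and 72.0% of the clones. The weaker chain was found more often than this background in 4 of 4 libraries. The cells were chosen by contigs of these chains and the background cells by another family, so this difference is a description. Against the stronger chain the weaker chain was lower in 2 and higher in 2 (exact sign-flip p = 0.5). The clones' cells had medians of 5513, 5105, 6357 and 5562 expression UMIs, against 5169, 4867.5, 5719 and 4061 in the reference.

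**Figure D2:**
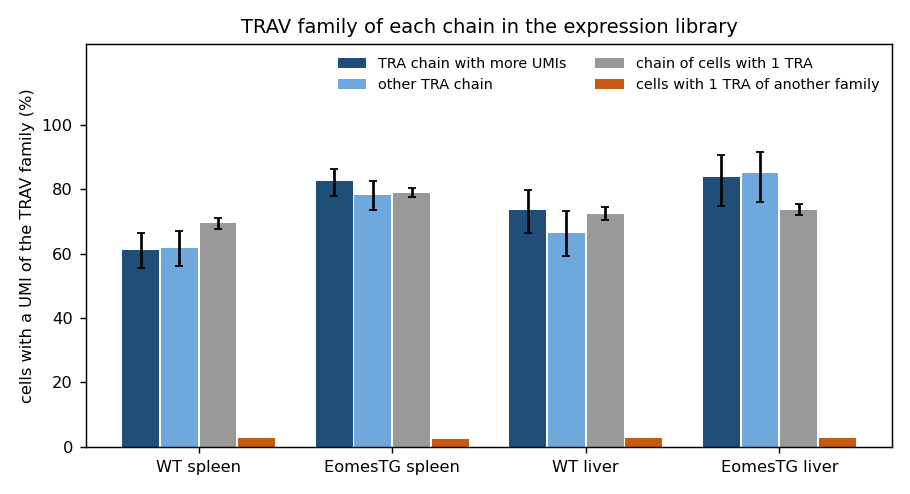
Share of cells (y axis, %) with at least 1 expression UMI of the TRAV family of their stronger chain, of their other chain and, in reference cells, of their only chain, with 95% exact binomial intervals for counting error, by library (x axis); orange bars are reference cells that use another family. The families of both chains were found in 61 to 84.9%, against 2.58 to 3.18% in the cells that use another family.

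The 2 chains of a cell used J segments from the same stretch of the locus. Over 1021 cells, each clone once, the TRAJ ranks of the 2 chains had a Pearson correlation of 0.67 and a Spearman correlation of 0.68. The Pearson values were 0.65, 0.64, 0.68 and 0.65 in the 4 libraries. These correlations describe cells, which are not replicates and share pools of mice and libraries, and carry no p-value. The 2 chains lay within 5 segments of each other in 41.4% of the cells, against 21.8% of pairs of chains taken from different cells. When the stronger chain used the 20 TRAJ segments nearest to the V segments (290 cells), the other chain also did in 190, used the middle 20 in 94 and the 20 nearest to Trac in 6. When the stronger chain used the 20 nearest to Trac (199 cells), the other chain also did in 108 and used the V-proximal 20 in 10. The pattern lacked its corners: chains from opposite ends of the J cluster were rare in a cell.

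Reference cells with 1 productive and 1 nonproductive TRA contig, an out-of-frame or otherwise failed rearrangement, had the same relation. Their TRAJ ranks correlated at 0.71, 0.63, 0.71 and 0.52 (0.69 over 2286 cells, each clone once), which was above the value for 2 productive chains in 2 libraries and below it in 2 (exact sign-flip p = 0.875). Barcodes with 2 productive TRA and 2 productive TRB chains correlated at 0.11, 0.14, 0.12 and 0.21 (0.20 over 242 barcodes), and their chains lay within 5 segments in 24.8%. The correlation was lower there than with 1 productive TRB in 4 of 4 libraries, by 0.511 ± 0.0555 (exact sign-flip test, adjusted p = 0.227, the smallest possible).

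**Figure D3:**
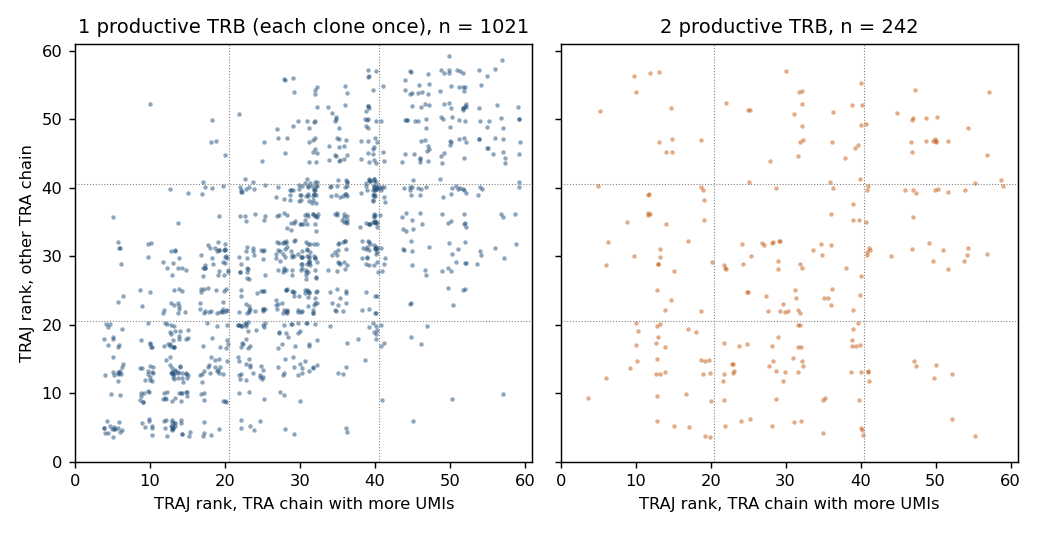
TRAJ rank of the chain with more UMIs (x axis) against that of the other TRA chain (y axis), 1 point per cell with a small random shift, rank 1 nearest to the V segments; dotted lines divide the 60 segments into 3 groups of 20. The 1021 cells with 1 productive TRB lie along the diagonal with sparse corners (Pearson 0.67), and the 242 barcodes with 2 productive TRB are spread out (0.20).

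The V segments of the 2 chains were related less closely. Their ranks correlated at 0.22 over 1021 cells, and the 2 chains lay within 5 V segments in 17.5% of the cells against 12.5% of chains from different cells, but in 12.5% against 15.6% in EomesTG liver. The same V segment was used by both chains in 9, 17, 4 and 1 cells, and 2, 1, 1 and 0 cells had 1 CDR3 nucleotide sequence in both contigs.

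Against the reference, the chains of cells with 2 productive TRA had slightly higher mean TRAJ ranks. The mean TRAJ rank, each clone once, was 32.7 against 32.1 in WT spleen and 26.3 against 25.4 in EomesTG spleen. It was 32.7 against 30.8 in WT liver and 25.1 against 23.9 in EomesTG liver. The difference was positive in 4 of 4 libraries, 1.15 ± 0.527 ranks (exact sign-flip test, adjusted p = 0.227, the smallest possible). The V-proximal 20 TRAJ segments gave 22.9, 36.9, 20.8 and 37.0% of their chains, against 26.1, 40.2, 30.7 and 44.4% of the reference chains. The 20 segments nearest to Trac gave 27.1, 13.1, 26.7 and 7.81%, against 27.1, 11.1, 26.3 and 9.15%, and the median ranks were equal in 3 libraries (32, 25 and 32) and 27 against 22 in EomesTG liver. Mean TRAV ranks were higher in 2 libraries and lower in 2 (exact p = 0.875). The J segment of the stronger chain lay further downstream than that of the weaker chain in 3 libraries and less far in 1 (exact p = 0.625).

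The most used segments were largely those of the reference. TRAV6-6, TRAV12-2, TRAV16N, TRAV13-1 and TRAV6N-7 led with 4.85, 4.16, 3.43, 2.89 and 2.89% of 2042 chains, against 4.25, 5.73, 3.33, 4.17 and 1.77% of 9248 reference chains. Among the J segments TRAJ22, TRAJ31, TRAJ30, TRAJ49 and TRAJ26 led with 6.07, 4.95, 4.46, 4.41 and 3.82%, against 6.39, 3.93, 4.76, 5.70 and 4.26%. CDR3 length was 13.7, 13.8, 13.6 and 13.7 codons on average, against 13.7, 13.7, 13.7 and 13.7, higher in 2 libraries and lower in 2 (exact sign-flip p = 0.75). Untemplated bases averaged 3.04, 2.89, 2.80 and 2.65 per chain, against 2.80, 2.76, 2.66 and 2.75 (exact p = 0.25). The invariant receptors of NKT cells (TRAV11 with TRAJ18) and MAIT cells (TRAV1 with TRAJ33) were among the chains of 1, 1, 1 and 0 and of 0, 0, 1 and 0 cells.

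The share of cells with 2 productive TRA in expanded clones was close to that of the reference in EomesTG liver and lower in the other libraries, and in both livers it rested on 1 clone. The share in clones of 2 or more cells was 2.56% against 4.63% in WT spleen and 2.92% against 3.43% in EomesTG spleen. In WT liver it was 16.9% (12.3 to 22.3%) against 19.9% (18.2 to 21.8%). In EomesTG liver it was 73.4% (67.8 to 78.5%) against 73.4% (71.7 to 75%). The mean difference was -1.40 ± 1.42 percentage points, lower in 3 of 4 libraries (exact sign-flip p = 0.25). Without the clone of 308 cells, in EomesTG liver 60 of 135 cells with 2 TRA were in expanded clones, 44.4% (35.9 to 53.2%), against 1910 of 2662 reference cells, 71.8% (70.0 to 73.5%). Without the clone of 48 cells, the WT liver share was 8.13% (4.81 to 12.7%) against 18.9% (17.2 to 20.7%). Without the corresponding clone the spleens had 2.0% against 4.63% (WT) and 1.08% against 3.24% (EomesTG), so the share was lower in 4 of 4 libraries, by 10.7 points on average (exact sign-flip test, adjusted p = 0.227, the smallest possible). This comparison, chosen after seeing the data, takes away the largest clone of cells with 2 TRA and leaves in the largest reference clone (492 cells in EomesTG liver, 117 in WT liver). By clones, 75 of 827 clones of 1 cell in EomesTG liver held a cell with 2 TRA (9.07%), 13 of 84 clones of 2 to 4 cells (15.5%) and 8 of 48 clones of 5 or more (16.7%, 7.48 to 30.2%). A larger clone offers more cells in which both chains can be found.

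Expanded clones also show how often both chains of a known pair were found in a cell. In clones where at least 2 cells carried the same pair, both chains were found in 4 of 4 cells in WT spleen and 7 of 14 in EomesTG spleen. They were found in 31 of 61 cells in WT liver (50.8%, 37.7 to 63.9%) and in 199 of 413 in EomesTG liver (48.2%, 43.3 to 53.1%). The other cells of these clones held only the clone's stronger chain (0, 5, 25 and 156 cells) or only its other chain (0, 2, 5 and 58), so they counted as reference cells. Clones enter this comparison only if both chains were seen in 2 cells, which favours a high share. A single clone gave all 14 cells in EomesTG spleen, 48 of the 61 in WT liver and 308 of the 413 in EomesTG liver. The intervals count cells of 1 clone as separate.

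The clone of 308 cells in EomesTG liver had 147 cells with both chains, 132 with TRAV13-1 alone and 29 with TRAV9-4 alone, and TRAV9-4 gave 43.3% of the TRA UMIs of the clone's pairs. The same TRB and pair were found in 14 cells of EomesTG spleen, 7 with both chains. The WT liver clone of 48 cells had 22 with both chains, 25 with TRAV7-3 alone and 1 with TRAV9-4 alone. Cells with both chains had more expression UMIs than the other cells of their clone (medians of 4126 and 3457 in EomesTG liver, 5248 and 4713 in WT liver). The next EomesTG liver clones, of 22, 20 and 17 cells, had both chains in 10, 6 and 2, and in the first and the last of these the chain found alone most often was the one with fewer UMIs in the pairs (11 and 12 cells). Over both organs of a genotype, 9 of 552 distinct combinations of TRB and TRA pair in WT recurred in 2 or more cells, 3 of them in both organs. In EomesTG 14 of 465 recurred and 2 were in both organs.

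**Figure D4:**
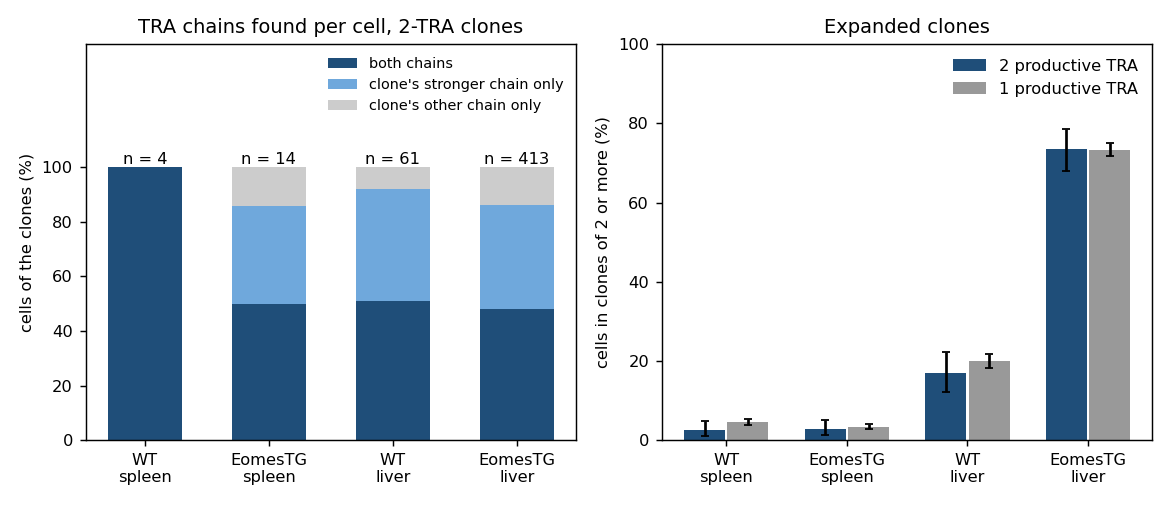
Left, TRA chains found in each cell of clones in which at least 2 cells carried the same pair, as % of the clones' cells (y axis) by library (x axis). Right, share of cells in clones of 2 or more cells (y axis, %) for cells with 2 and with 1 productive TRA, bars with 95% exact binomial intervals for counting error. About 50% of the cells of such clones showed both chains outside WT spleen (4 cells), and the expanded shares differ most in WT liver (16.9 against 19.9%).

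A nonproductive TRA contig was rare beside 2 productive ones. It was present in 3.98, 3.45, 4.76 and 5.67% of the cells with 2 productive TRA, against 27.7, 22.8, 32.2 and 32.0% of the reference. As background, a diploid cell has 2 TRA alleles, so the rule that chose the cells bears on these values and on the TRD contigs given next, and they are a description. A nonproductive TRB contig was present in 53.7, 53.1, 58.0 and 47.2%, against 48.7, 46.5, 50.7 and 54.5% of the reference, higher in 3 libraries and lower in EomesTG liver, a difference that was not tested.

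Of the TRD locus, Trdv1 was nearly absent and other segments were present at lower values than in the reference. These segments were chosen with their values in view. Contigs that joined a TRDV segment to TRAC, all of them nonproductive, were found in 0 of 1242 cells with 2 productive TRA, which allows a share of up to 0.242%, and in 106 of 11726 reference cells, 0.904% (0.741 to 1.09%). The reference shares were 0.586, 1.29, 0.804 and 0.886% by library. Restricted to cells with at least 5 TRB UMIs, also chosen after seeing the data, the counts were 0 of 1097 and 94 of 10130. In the expression libraries Trdv1, a V segment of the δ chain (chr14:53881612-53882217), had 0, 1, 0 and 0 UMIs in cells with 2 productive TRA and 73, 188, 27 and 129 in the reference. That is 1 UMI of 7302354 against 417 of 62057842, a ratio of 0.0204 with a counting interval from 0.00051 to 0.114. Of the 417 reference UMIs, 310 came from the 105 cells with a TRDV contig, 14 from the 3272 with a nonproductive TRA contig and 93 from the remaining 8229. Scaled to a common UMI total (CPM) these were 566, 0.709 and 2.23, against 0.137 in cells with 2 productive TRA. Trdv2-2, another V segment of the δ chain (chr14:53960944-53961602), differed less: it had 4, 10, 4 and 4 UMIs with 2 productive TRA, or 3.01 CPM overall (1.89 to 4.56) against 5.85 CPM (5.26 to 6.48) in the reference and 3.70 CPM in reference cells with a nonproductive TRA contig. It was lower in 4 of 4 libraries without passing the gene test described next (log2 difference -0.94, edgeR adjusted p = 0.58). Trdc, the δ chain constant gene (chr14:54142851-54148868), had 0.959 CPM (7 UMIs) against 2.55 CPM (158 UMIs), lower in 4 of 4 libraries. Within the reference it had 3.42 CPM in cells with 1 TRA contig and 0.760 CPM in cells that also carried a nonproductive one. The rule that chose the cells bears on Trdv2-2 and Trdc too, so their values are a description.

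Genes were then compared over the sums of UMIs of both kinds of cell in each library, with edgeR's quasi-likelihood test and the library as a term. The sums held 1236 cells with 2 productive TRA and 11606 reference cells. In the gene results with 1 cell per clone, that cell was the clone's first barcode in alphabetical order, of either kind. A clone with a TRA pair could then enter as a reference cell. In EomesTG liver 86 of the 96 clones with such a pair entered by a cell with 2 TRA. Of 11083 genes tested, 20 were higher and 5 lower at a Benjamini-Hochberg adjusted p under 0.05, together 0.226% of the genes (0.18% higher, 0.0451% lower). Antigen receptor segments made up 14 of the 20 and 2 of the 5. The 68 TRAV segments tested had a median log2 difference of 0.71, against 0.00 over all genes, and 56 of them were higher. Such cells carry a second V transcript by the rule that chose them, so these values are a description. Reads of near-identical V copies may be split or misassigned.

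The 2 receptor segments that were lower were Trdv1 (log2 difference -5.43, edgeR adjusted p = 0.00042) and Trav8-2, a V segment annotated as a pseudogene (chr14:53738375-53738838). Trav8-2 had 0.915, 2.50, 0.613 and 4.03 CPM with 2 productive TRA, against 5.38, 7.75, 3.50 and 33.2 CPM in the reference. It was lower in 4 of 4 libraries, and the counting intervals overlapped in WT liver (up to 3.42 CPM against 2.54 to 4.70). Its log2 difference was -2.51 ± 0.30 (SE, edgeR adjusted p = 0.00046). In EomesTG liver 339 of its 447 reference UMIs came from 1 clone of 430 cells, and with 1 cell per clone the difference was -2.29 (edgeR adjusted p = 0.0091). Over all libraries, reference cells with a nonproductive TRA contig had 18.4 CPM, those with 1 TRA contig 8.45 CPM and cells with 2 productive TRA 1.92 CPM. The rule that chose the cells bears on both segments, as on the nonproductive and TRD contigs above, so these values are a description.

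Apart from receptor segments 6 genes rose and 3 fell, and Nrn1 was the only 1 of these 9 still called when each clone contributed 1 cell (17 of 9949 genes, 0.171%, were then higher). Nrn1, which encodes neuritin, a surface protein known in regulatory and anergic T cells (chr13:36725361-36735131), had 14.6, 12.0, 21.5 and 24.8 CPM with 2 productive TRA, against 7.37, 6.31, 9.47 and 12.4 CPM in the reference. It was higher in each of the 4 libraries, and the lowest value with 2 TRA lay just under the highest of the reference. The log2 difference was 1.04 ± 0.15 (SE, edgeR adjusted p = 0.0049), and it was 1.06 with 1 cell per clone (adjusted p = 0.0081) and 1.04 with DESeq2 (adjusted p = 0.0075). It rested on 128 UMIs in cells with 2 TRA. With DESeq2 none of the other 8 passed (adjusted p from 0.080 for Rrm2 to 1.0). The call was lost with cells thinned to 2000 UMIs (1.0, edgeR adjusted p = 0.32), without WT spleen (1.05, adjusted p = 0.057) and in clones of 1 cell (0.97, adjusted p = 0.052), where 0.174% of genes were higher.

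Of the genes that rose, 3 act in dividing cells. Birc5, which encodes survivin, a protein of the mitotic spindle, had 53.1, 20.5, 123 and 161 CPM against 31.8, 17.2, 104 and 87.6 CPM (log2 difference 0.57 ± 0.11, edgeR adjusted p = 0.028). Rrm2, a subunit of ribonucleotide reductase, had 36.1, 21.5, 84.6 and 90.7 CPM against 27.6, 14.5, 63.3 and 52.8 CPM (0.55 ± 0.10, edgeR adjusted p = 0.024). Hist1h4d, a histone H4 gene, rose by 0.65 ± 0.13 (edgeR adjusted p = 0.045). All 3 were higher in 4 of 4 libraries. In EomesTG liver the clone of 308 cells gave 169 of the 240 Birc5 UMIs and 112 of the 135 Rrm2 UMIs of cells with 2 TRA. Without the largest such clones none of the 3 passed (edgeR adjusted p = 0.40 for Birc5, 1.0 for Rrm2 and 0.83 for Hist1h4d), nor did they with 1 cell per clone (0.16, 0.39 and 0.34). In clones of 1 cell Birc5 was called (log2 difference 0.69, edgeR adjusted p = 0.0054) and Rrm2 missed the threshold (0.62, adjusted p = 0.052). Left out 1 at a time, WT spleen, EomesTG spleen and EomesTG liver each ended all 3 calls (edgeR adjusted p from 0.054 to 0.39), and WT liver that of Hist1h4d (0.13). Without the 5% of barcodes with the most UMIs the Rrm2 difference was -0.03.

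Of the list of 12 cell cycle genes, 2 passed the test upward (Birc5 and Rrm2) and 0 downward, while 0.18% and 0.0451% of all genes did. The median log2 difference of the list was 0.37 against 0.00 over all genes. Mki67, the proliferation marker, had 36.1, 15.0, 104 and 134 CPM against 30.1, 12.9, 88.5 and 87.0 CPM (0.38, edgeR adjusted p = 0.23). The median was 0.40 with 1 cell per clone, 0.52 in clones of 1 cell, 0.28 without the 5% of barcodes with the most UMIs and 0.12 without the largest clones of cells with 2 TRA. When cells with 2 TRA had to have at least 5 UMIs of each chain, with the reference unchanged, all 12 passed upward and the median was 1.55, while 2.2% of all genes passed upward. That setting selects cells by TRA UMIs on 1 side only. Cells with 2 TRA also had more UMIs per cell in each library, as given above, and the part of depth and of barcodes holding more than 1 cell in these differences was not tested.

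The other called genes had most of their UMIs in EomesTG liver. Prss2, a trypsinogen gene that lies within the TRB locus, between V segments and the D, J and constant segments, on mouse chromosome 6 (chr6:41521787-41525079), had 0.458, 9.51, 2.45 and 356 CPM against 2.53, 2.47, 0.637 and 31.6 CPM (2.91 ± 0.33, edgeR adjusted p = 0.00042). In EomesTG liver all 530 Prss2 UMIs of cells with 2 TRA, and 385 of the 426 of the reference, were from the clone of 308 cells, and without the largest clones the log2 difference was 0.00. Lim2, a lens membrane protein gene, rose by 1.02 ± 0.19 (edgeR adjusted p = 0.036), with 170 of its 181 EomesTG liver UMIs in that clone. Cd200r1, an inhibitory receptor of leukocytes, had 0.915, 0.501, 4.29 and 36.3 CPM against 1.40, 1.20, 6.76 and 98.6 CPM (-1.29 ± 0.18, edgeR adjusted p = 0.0029). Its neighbour Cd200r2 fell by 2.34 ± 0.27 (edgeR adjusted p = 0.00080), with 43 UMIs against 2305 in EomesTG liver and no UMI in either spleen library. Spp1, which encodes osteopontin, had 1 UMI against 253, and 112 of the 215 reference UMIs in EomesTG liver were from 1 clone of 492 cells. With 1 cell per clone the log2 difference of Cd200r1 was -0.38 (edgeR adjusted p = 1.0) and that of Cd200r2 was 0.31, and Lim2 and Spp1 had too few UMIs to be tested. Without EomesTG liver none of Prss2, Cd200r1 and Cd200r2 passed (edgeR adjusted p = 1.0 each). The next genes downward did not pass: Nrgn had a log2 difference of -1.23 (edgeR adjusted p = 0.067) and Klrc1 of -0.49 (adjusted p = 0.15).

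**Figure D5:**
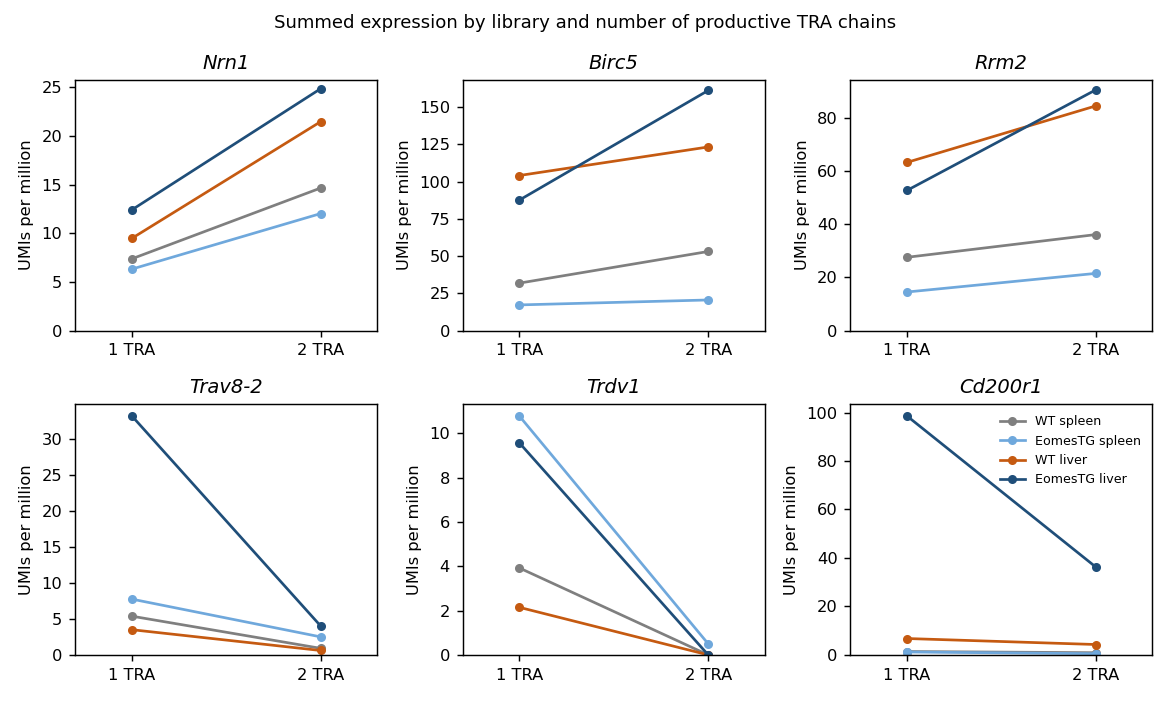
Summed expression (y axis, CPM) of 6 genes in cells with 1 and with 2 productive TRA (x axis), 1 line per library; each panel starts at 0 and has its own scale. Nrn1, Birc5 and Rrm2 were higher with 2 TRA and Trav8-2, Trdv1 and Cd200r1 lower in each of the 4 libraries, and most of the Cd200r1 signal was in EomesTG liver.

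The gene lists that bear on the receptor and on T cell state showed few differences. Of 9 tested genes of the TCR complex and CD8, 0 passed (median log2 difference 0.03). Trac, the α chain constant gene, had 331, 305, 329 and 351 CPM against 252, 222, 264 and 499 CPM, higher in 3 libraries and lower in EomesTG liver (0.18, edgeR adjusted p = 1.0). With 1 cell per clone Trac was higher by 0.37 (edgeR adjusted p = 0.00095), and without EomesTG liver by 0.39 (adjusted p = 0.00073). The cells were chosen by a second TRA contig, so the rule bears on Trac as on the TRAV segments, and these values are a description. Of the recombination genes, Rag1 and Rag2 were too low to be tested, and 0 of 5 others passed. Of 16 genes of TCR signal strength and feedback 0 passed, with a median of -0.01. Cd5, whose level follows the strength of self-recognition in the thymus, had -0.04 ± 0.09, and Nr4a1, an immediate target of receptor signalling, -0.04 ± 0.13 (SE). Of 6 genes of recent thymic emigrants 0 passed (median 0.13), of 12 naive genes 0 (median 0.01) and of 6 residency genes 0 (median -0.15).

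Of 18 memory and effector genes 0 passed, with a median of -0.16 and 14 lower. The chemokine gene Ccl5 had 1874, 2186, 7487 and 31269 CPM against 3309, 2147, 9032 and 27815 CPM (lower in 2 libraries and higher in 2; -0.21, edgeR adjusted p = 1.0). With 1 cell per clone Ccl5 fell by 0.35 on the log2 scale (edgeR adjusted p = 0.00012), and by 0.68 without the largest clones (adjusted p = 6.6e-06). Gzma, the gene of granzyme A, was lower in 4 of 4 libraries (9.15, 6.51, 457 and 3924 CPM against 76.3, 28.4, 590 and 5767 CPM) without passing (-0.85 ± 0.20, edgeR adjusted p = 0.15). Gzma passed without the largest clones (-1.40, edgeR adjusted p = 4.4e-05), without WT liver (-1.18, adjusted p = 0.0014) and with thinned cells (-0.52, adjusted p = 0.0056), and was -0.32 with 1 cell per clone (adjusted p = 1.0). Of 9 tested inhibitory receptor and exhaustion genes 1 passed, Cd200r1, downward, while 0.0451% of all genes did. Pdcd1, which encodes PD-1, had 6.86, 12.5, 14.1 and 373 CPM against 7.10, 12.5, 25.1 and 489 CPM (-0.36 ± 0.11, edgeR adjusted p = 0.56). Without the largest clones of cells with 2 TRA it fell by 1.08 on the log2 scale (edgeR adjusted p = 0.00011). Eomes had 90.6, 137, 104 and 198 CPM against 90.9, 138, 89.0 and 177 CPM (0.10 ± 0.07, adjusted p = 1.0). The homing receptor gene Cxcr6 had 44.8, 7.51, 135 and 321 CPM against 50.6, 9.58, 135 and 365 CPM (-0.13 ± 0.08, adjusted p = 1.0), and without those clones it fell by 0.44 (edgeR adjusted p = 0.045). In that setting 3 of the 9 inhibitory receptor genes, 3 of the 18 memory and effector genes and 1 of the 6 residency genes passed downward, while 0.118% of all genes did. With 1 cell per clone 0, 1 and 0 did, and 3 of 9949 genes in all. Leaving out the largest clones of cells with 2 TRA keeps the largest reference clones, so the 2 kinds then differ in their share of expanded cells. The part of this in the differences was not tested.

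None of the tested markers of the cell types given here passed the test in either direction. The 7 CD8 T cell markers summed to 5250 to 7309 CPM with 2 productive TRA and 5091 to 7899 CPM in the reference. The 5 myeloid markers summed to 69.1 to 122 CPM against 72.9 to 124 CPM, with Lyz2 at 0. Cd4, the 3 dendritic cell markers, the 3 erythroid markers and both platelet markers were at 0 in cells with 2 productive TRA, and the 4 hepatocyte markers summed to at most 1.23 CPM. The 3 CD4 T cell markers summed to 1.34 to 7.97 CPM against 0.975 to 8.35 CPM, and the 3 endothelial markers to 14.8 to 37.1 CPM against 12.5 to 41.9 CPM. The 4 γδ T cell markers (Trdc and constant genes of the γ chain) summed to 3.66 to 253 CPM against 9.09 to 226 CPM, and the 3 NK cell markers to 0.915 to 39.2 CPM against 5.22 to 28.9 CPM. Of the deposited cell barcodes 23 to 59 were shared by a pair of libraries, 1 of them a barcode with 2 productive TRA in both, and 0 of them with the same TRB.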

How the data were processed

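Receptor and expression libraries of 4 cell pools were analysed. The submitters' processing notes list Cell Ranger with mm10, and software 3.1.0 is written in the headers of the matrices; other settings are not given in the sources used here. The authors deposited UMI counts per gene and barcode, and counts of UMIs and reads per assembled contig, per the file headers. The members, lists and tests were chosen with earlier results of these data known.

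Barcodes were classed by productive contigs. Clones were cells of a library with the same TRB and a shared TRA (V, J and CDR3 nucleotides). The CDR3 was aligned to GENCODE M21 segments. For expression, barcodes with at least 500 UMIs, 300 genes and under 10% mitochondrial UMIs were kept (1236 of 1242, and 11606 of 11726 in the reference). No doublet caller was used. Their UMIs were summed into 8 sums and tested with edgeR 4.0.16 (R 4.3.3; TMM, filterByExpr, quasi-likelihood test, library as a term, 3 residual degrees of freedom, Benjamini-Hochberg over all genes), and with DESeq2 1.42.0 as an alternative; the code was tested on simulated counts. The libraries come from 2 pools of mice, so p-values measure the spread between these libraries. Intervals are exact (Clopper-Pearson or Poisson) at 95% and cover counting error only; a count of 0 allows 3 counts. Intervals used scipy 1.17.1, and exact sign-flip tests went through all sign patterns of the 4 differences with numpy 2.4.6. Genes were named by a rule: up to 10 of lowest p per direction past adjusted p 0.05, completed to 5 by value, without receptor, mitochondrial, ribosomal protein, unnamed and sex-linked genes, and Eomes, Pdcd1 and Cxcr6. The result of 1 marker list is not reported here.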

Additional observations from a re-analysis of the deposited data

How the results depend on the processing

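The share of cells with 2 productive TRA stayed inside its counting interval when each clone was counted once, with 2 UMIs required, after the expression filter and without the 5% of barcodes with the most UMIs. It was 5.72, 4.34, 6.73 and 4.28% with 5 UMIs required of each contig, and 17.0, 19.9, 17.0 and 13.9% with TRA UMIs thinned to 5 and shallower cells left out. That thinned setting kept 1727 of 3764 cells in WT spleen. Total TRA UMIs had medians of 9, 8, 9 and 9 with 2 TRA, against 4, 4, 4 and 5 in the reference. The cells left out were therefore more often reference cells, which raises the share. Without barcodes with a nonproductive contig the share was 10.9% in WT spleen, 10.5% in EomesTG spleen, 12.2% in WT liver and 13.1% in EomesTG liver. A nonproductive TRA contig was more frequent in reference cells, as given above, which raises the share in this setting. Without the largest clone of cells with 2 TRA the share was 4.83% in EomesTG liver. The TRAJ correlation was 0.72 with 5 UMIs of each chain and 0.65, 0.64 and 0.65 in WT spleen, EomesTG spleen and EomesTG liver alone, against 0.67 over all, and the TRAV correlation was 0.11 in EomesTG spleen alone. The difference in expanded clones was negative under every alternative run, from -0.847 to -1.88 points when 1 library was left out and -10.7 points without the largest clones.

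The genes called higher numbered 243 with 5 UMIs of each TRA, 58 with no filter on low counts, 6 with DESeq2, and 6 to 37 when 1 library was left out (6 without WT spleen, 6 without EomesTG spleen, 37 without WT liver), against 20. Those lower numbered 124, 35, 2 and 3 to 12 (12 without WT liver, 3 without EomesTG liver), and 3 with 1 cell per clone or clones of 1 cell, 13 without the largest clones, 9 with thinned cells and 10 without the deepest barcodes, against 5. With 1 cell per clone 13 of the 25 calls were shared. Trdv1 and Trav8-2 kept their call in all 13 alternatives, but the rule that chose the cells bears on both segments under each of them. The log2 difference turned for Rrm2 without the deepest barcodes (-0.029), for Lim2 without the largest clones (-1.72) and for Cd200r2 with 1 cell per clone (0.31), DESeq2 (0.95) and without EomesTG liver (0.39; from -2.54 to 0.39 when 1 library was left out). The cause was not tested. Leaving out the largest clones and keeping clones of 1 cell were chosen after seeing the data. The replicate numbers of the labels are all 1, so they pair no samples; the 2 kinds of cell were paired within each library, which was a term of the fit under every edgeR setting (22 and 5 calls with RLE factors).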
